A study of Mus musculus with 12 samples.

Results

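The genes described here carry out the making, loading and action of microRNAs (miRNAs). They are Drosha, Dgcr8, Xpo5, Dicer1, Ago1, Ago2, Tnrc6a, Tnrc6b, Lin28a and Lin28b, which make up 10 of the 22462 genes in the count table. These 10 were chosen by their symbols, with earlier results of these data known. They were measured in mouse embryonic stem cells (ESCs), which the study's methods give as the V6.5 line, and in epiblast like cells (EpiLCs), which were made from ESCs and stand for the next pluripotent state of the early embryo. For the differentiation the methods name a V6.5 line with a miR290-mCherry and a miR302-GFP reporter, so all groups may share these alleles. ESCs were kept in medium with serum, LIF and 2i, the inhibitors PD0325901 and CHIR99021 that hold the naive state. EpiLCs had grown for about 56 hours without LIF and 2i. No other allele or agent is named. Each cell type was profiled as total RNA and as ribosome protected fragments (RPFs), the stretches of mRNA covered by ribosomes, in 3 replicates, which made 12 libraries. The study calls its replicates biological and does not say how they were cultured, and p-values measure the spread between these libraries.

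MiRNAs are cut from long transcripts in steps. DROSHA, an RNase III enzyme, and its RNA-binding partner DGCR8 form the microprocessor, which releases a hairpin in the nucleus. XPO5 carries the hairpin to the cytoplasm, where DICER1 trims it to a short duplex. A strand of the duplex is loaded into an Argonaute protein (AGO1 to AGO4), and TNRC6 proteins bound to Argonaute recruit the machinery that represses and degrades the target. LIN28A and LIN28B bind precursors of let-7, a miRNA family of differentiating cells, and block their maturation, while let-7 in turn is known to repress Lin28 transcripts. Pluripotent stem cells are known for miRNAs of the miR-290 and miR-302 clusters. By the study's flow cytometry, naive ESCs were positive for the miR-290 reporter and negative for the miR-302 reporter. EpiLCs were positive for both reporters.

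The mature sequences below are shown because the 3′ UTRs of some of the 10 genes hold matches to them. They are from RefSeq on GRCm38.p6, with bases 2 to 8, the seed, in capitals. The first pair shares a seed and so does the second. MiRNAs themselves were not measured in these libraries.
let-7a-5p: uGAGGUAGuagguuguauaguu
let-7g-5p: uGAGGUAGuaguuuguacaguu
miR-294-3p: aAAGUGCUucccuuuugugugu
miR-302b-3p: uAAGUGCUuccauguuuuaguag

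The let-7 seed pairs with CTACCTC and the seed of miR-294 and miR-302b with AGCACTT, searched on the transcript strand of the principal Gencode M21 transcript. A let-7 match was present in 8.17% of 20715 annotated 3′ UTRs. Lin28a held 2 such matches in a 3′ UTR of 2775 bases, and 14.5% of 3′ UTRs of like length (80% to 125% of it) held at least 1. Lin28b held 4 in 4445 bases (24.2% at like length), and Ago2 held 3 in 11064 bases (45.3% at like length). The other 7 genes held none. The sites are shown with the match in capitals and at most 15 bases before it, on GRCm38, all on the minus strand.
Lin28a, chr4:134005182-134005211: gcacagcctgttgaaCTACCTCatttttgc
Lin28a, chr4:134004544-134004573: gagatcgccacaaacCTACCTCactgtgtt
Lin28b, chr10:45381015-45381044: acccgggcgggaagtCTACCTCatgcaagc
Lin28b, chr10:45378641-45378670: tatacttgttagtaaCTACCTCtgagtttg
Lin28b, chr10:45378469-45378498: gtttacagcacatggCTACCTCccagctac
Lin28b, chr10:45377053-45377082: aaatgatggcaccgaCTACCTCttcaatca
Ago2, chr15:73101717-73101746: acagatgcataaaagCTACCTCtgacttct
Ago2, chr15:73100033-73100062: caggtggcctctgtcCTACCTCcaggcact
Ago2, chr15:73097975-73098004: ttttacaatgtggatCTACCTCagttaaac

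Both Lin28a matches were followed by an A, the base that lengthens a seed match, as was the first shown for Lin28b and the last for Ago2. The AGCACTT match was present in 13.6% of all 3′ UTRs. Tnrc6b held 2 in 11609 bases (78.9% at like length) and Lin28b held 1 (41.8% at like length), and the other 8 genes held none. They are shown on the plus strand for Tnrc6b and the minus strand for Lin28b. A match is a string of letters and not a measured site.
Tnrc6b, chr15:80931313-80931342: tgcggggaacatgctAGCACTTgtgtgata
Tnrc6b, chr15:80935703-80935732: catgccttttatcccAGCACTTgagaggca
Lin28b, chr10:45378516-45378545: gaactcactgatatgAGCACTTgctcattc

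Depth was 6188838 to 14655015 counts in the 6 total RNA libraries and 2681439 to 11359352 in the 6 RPF libraries, and the lowest value of each belonged to EpiLC replicate 2. By naive and EpiLC markers the cell types matched their labels. All 7 naive markers fell and all 6 EpiLC markers rose in both assays. Pou5f1 and Sox2, which both states use, fell to unlike extents. EpiLC over ESC was 0.64-fold in total RNA and 0.71-fold in RPF for Pou5f1, and 0.15-fold and 0.13-fold for Sox2. Markers of other cells moved too. The summed level of 6 fibroblast markers was 1.97 to 2.31 CPM (counts relative to library size) in ESC total RNA against 12.8 to 14.9 in EpiLC total RNA, and 6.38 to 7.16 against 34.3 to 41.1 in RPF, with Lum at 0 counts in all total RNA libraries. The sum of 2 neural markers was 9.36 to 14.1 CPM in ESC total RNA against 19.1 to 21.7 in EpiLC total RNA. In RPF this sum was 10.5 to 14 CPM in ESCs against 20.5 to 28.5 CPM in EpiLCs. Sox1 gave 1.13-fold in total RNA with overlapping cell types, and 1.45-fold in RPF with all EpiLC libraries higher. Pax6 gave 27.3-fold in total RNA from a low ESC level. It had at most 3 counts in every ESC RPF library, so its fold is a description only. The 5 endoderm markers summed to at most 7.88 CPM and the 2 mesoderm markers to at most 3.2 CPM in any library. The part of such cells in the changes below was not tested, and in bulk samples fewer cells of a type and less RNA per cell cannot be told apart.

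Levels below are CPM scaled by TMM, a factor per library that sets most genes equal, and changes are log2 folds of EpiLC over ESC from limma with their standard errors. A gene passed the test at an adjusted p below 0.05 over 11750 tested genes, and was called when it also changed more than 2-fold, the study's own limit. All 10 genes were high enough to be tested. In total RNA 8 of the 10 rose, against 34.6% of all tested genes, and 1 fell, against 30.7%. Among RPFs 8 rose, against 31.1% of all tested genes, and 2 fell, against 28.7%. The median change of the 10 was 0.37 in total RNA and 0.43 in RPF, beside 0.03 and 0.01 over all tested genes. Only Lin28a and Lin28b were called. Called genes made up 14.6% (higher) and 9.70% (lower) of all tested genes in total RNA and 15.4% (higher) and 10.6% (lower) in RPF. The libraries of the 2 cell types did not overlap, with EpiLC higher, for 8 genes in each assay, against 36.9% of tested genes in total RNA and 32.2% in RPF. They did not overlap, with EpiLC lower, for 1 gene in total RNA and 2 in RPF, against 33.4% and 30.9%.

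**Figure D1:**
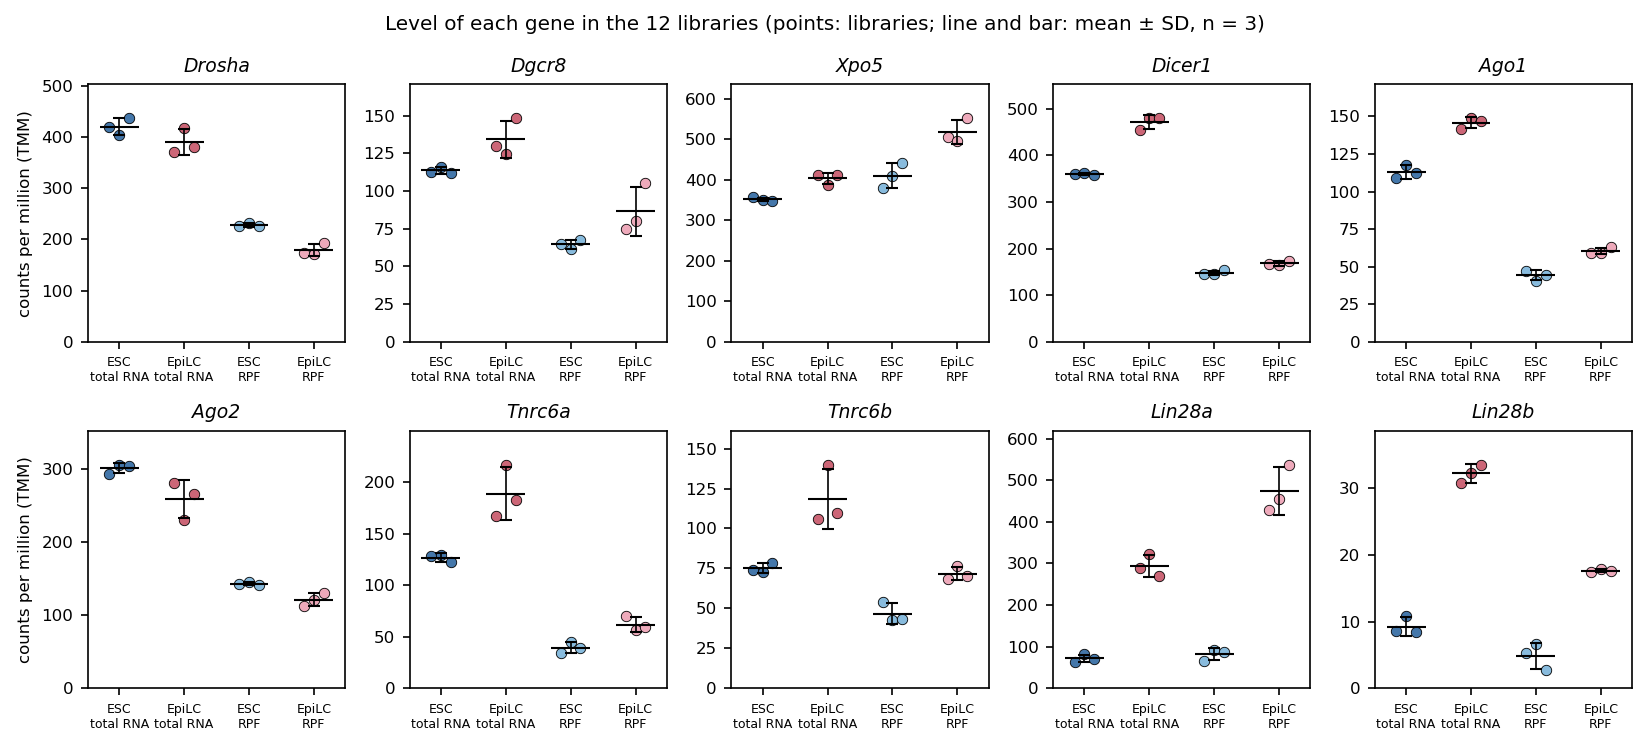
Each panel plots the CPM of a gene in the 12 libraries, by cell type and assay, on a linear axis from 0, with the mean and SD of 3 replicates. The EpiLC libraries of Lin28a and Lin28b lie far above the ESC libraries in both assays, while Drosha and Ago2 are the genes with lower EpiLC means.

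The LIN28 genes changed most. Lin28a, counted over its coding sequence within chr4:134006105-134018235 on the minus strand (mm10), stood at 63.6, 81.9 and 70.0 CPM in ESC total RNA and at 289.5, 323 and 269 CPM in EpiLC total RNA. Its RPFs went from 66.8, 93.2 and 86.7 CPM in ESCs to 427, 454 and 538 CPM in EpiLCs. Every EpiLC library was thus more than 3 times as high as any ESC library in total RNA and more than 4 times in RPF. The change was 2.03 ± 0.10 for total RNA, which is 4.09-fold (95% interval 3.54 to 4.73, adjusted p = 6.48e-15), and 2.55 ± 0.11 for RPF, which is 5.86-fold (4.99 to 6.87, adjusted p = 9.45e-16).

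Lin28b, the paralog on chr10:45381065-45469183 (minus strand), was the rarer of the pair. It was at 8.53, 10.9 and 8.40 CPM in ESC total RNA and at 30.8, 32.4 and 33.6 CPM in EpiLC total RNA. Its RPF level was 5.26, 6.59 and 2.75 CPM in ESCs, from 30 to 41 counts, and 17.4, 17.9 and 17.6 CPM in EpiLCs, from 47 to 94 counts. No EpiLC library overlapped with an ESC library. Lin28b rose by 1.80 ± 0.15 in total RNA (3.48-fold, 95% interval 2.81 to 4.30, adjusted p = 9.94e-11) and by 2.10 ± 0.26 in RPF (4.28-fold, 2.94 to 6.22, adjusted p = 1.99e-07). Without ESC RPF replicate 3, the library at 2.75 CPM, the RPF change was 1.62.

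Per kilobase of coding sequence, Lin28a was 10.2 ± 0.64 times as abundant as Lin28b in ESC total RNA and 12 ± 1.33 times in EpiLC total RNA (SD, n = 3), with ranges of 9.82 to 11 and 10.6 to 13.1 that overlap. In RPF the ratio was 25.6 ± 13.8 in ESCs and 35.3 ± 4.22 in EpiLCs, also with overlapping ranges. The coding sequences counted were short, 585 bases for Lin28a and 771 bases for Lin28b.

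The microprocessor genes moved apart. Drosha, on chr15:12833857-12935122 (plus strand), was at 419.9, 404 and 437 CPM in ESC total RNA and at 372, 419 and 382 CPM in EpiLC total RNA, and these ranges overlap. Its RPFs stood at 226, 232 and 225 CPM in ESCs and at 174, 172 and 192 CPM in EpiLCs, so that all EpiLC libraries were lower. Drosha RPF fell by 0.33 ± 0.07 on the log2 scale (adjusted p = 0.000441), while its total RNA gave -0.12 ± 0.06 and did not pass (adjusted p = 0.0673). The total RNA change passed in 6 of 13 other fits, with adjusted p of 0.0138 to 0.0366, and when any of 8 single libraries was left out, with -0.135 to -0.160.

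Dgcr8, on chr16:18255522-18284371 (minus strand), was at 113, 116 and 112 CPM in ESC total RNA and at 129.7, 125 and 149 CPM in EpiLC total RNA. Its RPFs rose from 64.9, 61.5 and 67.8 CPM in ESCs to 74.7, 80.2 and 105 CPM in EpiLCs. All EpiLC libraries were higher, with EpiLC replicate 3 highest in both assays. The change was 0.24 ± 0.08 in total RNA (adjusted p = 0.0123) and 0.41 ± 0.11 in RPF (adjusted p = 0.00291). The first did not pass by DESeq2 (adjusted p = 0.0892) or limma-trend (0.0607). Without EpiLC total RNA replicate 3 it became 0.17 with an adjusted p of 0.0969, and without EpiLC RPF replicate 3 the RPF change became 0.24 with an adjusted p of 0.0930.

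The ratio of Drosha to Dgcr8 per kilobase followed from these values. It was 2.07 ± 0.12 in ESC total RNA (1.94 to 2.18) and 1.64 ± 0.22 in EpiLC total RNA (1.43 to 1.88). In RPF it went from 1.97 ± 0.13 (1.86 to 2.11) to 1.17 ± 0.14 (1.02 to 1.3), with no overlap in either assay. No test was run on such ratios, and an exact permutation test of 3 against 3 libraries cannot go below p = 0.1.

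Xpo5 and Dicer1, the export and dicing steps, both rose. Xpo5, on chr17:46202966-46242271 (plus strand), stood at 356, 351 and 348 CPM in ESC total RNA and 413, 388 and 411 CPM in EpiLC total RNA. Its RPFs were at 379, 409.7 and 441 CPM in ESCs and at 505, 496 and 552 CPM in EpiLCs. The groups did not overlap, and Xpo5 rose by 0.20 ± 0.06 in total RNA (adjusted p = 0.00355) and by 0.34 ± 0.06 in RPF (adjusted p = 5.9e-05).

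Dicer1, on chr12:104691593-104731868 (minus strand), had tight replicates, at 359.8, 363 and 358 CPM in ESC total RNA and 454, 479.6 and 479 CPM in EpiLC total RNA. The RPF level was 146, 146 and 153 CPM in ESCs and 167, 164 and 173 CPM in EpiLCs. EpiLC libraries were higher throughout. The change was 0.38 ± 0.05 in total RNA (adjusted p = 2.42e-07) and 0.18 ± 0.07 in RPF (adjusted p = 0.0291). The RPF change did not pass in 3 of 13 other fits, with adjusted p of up to 0.0852, or, with adjusted p of 0.0693 to 0.118, when ESC RPF replicate 1 or 2 or EpiLC RPF replicate 1 or 3 was left out.

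Ago1 and Ago2 moved in opposite directions. Ago1, on chr4:126439503-126463835 (minus strand), was at 109, 118 and 112 CPM in ESC total RNA and at 142, 149 and 147 CPM in EpiLC total RNA. Its RPFs stood at 47.4, 40.6 and 44.7 CPM in ESCs and 58.9, 59.3 and 62.9 CPM in EpiLCs. Every EpiLC library was above every ESC library, and Ago1 rose by 0.37 ± 0.06 in total RNA (adjusted p = 2.01e-05) and by 0.44 ± 0.10 in RPF (adjusted p = 0.000711).

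Ago2, which encodes the Argonaute that can itself cut a target, lies on chr15:73106908-73146542 (minus strand). It was at 293, 306 and 304 CPM in ESC total RNA and at 280.4, 231 and 266 CPM in EpiLC total RNA. Its RPFs were at 143, 145 and 141 CPM in ESCs and at 113, 121 and 131 CPM in EpiLCs. All EpiLC libraries were lower, and Ago2 fell by 0.20 ± 0.06 in total RNA (adjusted p = 0.00619) and by 0.23 ± 0.09 in RPF (adjusted p = 0.0268). With a correction for GC content neither passed, at -0.13 (adjusted p = 0.0565) and -0.18 (adjusted p = 0.0728). The RPF change also did not pass with total counts (-0.20, adjusted p = 0.0560) or, with adjusted p of 0.0532 to 0.147, when ESC RPF replicate 2 or 3 or EpiLC RPF replicate 1 or 2 was left out.

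The other Argonaute genes were rare. Ago3 gave 24.1 to 25.2 CPM in ESC total RNA and 23.9 to 26 CPM in EpiLC total RNA, and it did not pass in total RNA (-0.0035 ± 0.13) or RPF (0.32 ± 0.24). Its RPF change was 0.69 and passed without EpiLC RPF replicate 1 (adjusted p = 0.0124), and was -0.067 without EpiLC RPF replicate 3. Ago4 gave 2.26 to 3.62 CPM in ESC total RNA and 5.01 to 8.01 CPM in EpiLC total RNA. Its RPFs were at 1.28, 0.43 and 0.37 CPM in ESCs and 0.62, 2.28 and 3.94 CPM in EpiLCs, from 2 to 21 counts per library, and these ranges overlap. Ago4 was high enough to be tested only through its EpiLC libraries, so its levels are a description and no test is given.

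Summed over the 4 Argonaute genes, the level per kilobase of coding sequence (RPKM) was 174 ± 4.87 in ESC total RNA and 172 ± 7.90 in EpiLC total RNA (SD, n = 3). In RPF it was 77.9 ± 0.98 and 77.6 ± 7.0. The ranges of the cell types overlapped in both assays, at 169 to 179 against 163 to 178 and at 77.0 to 79.0 against 71.0 to 85.0. The makeup of the sum was different. Ago2 took 68.2% ± 0.53 of it in ESC total RNA and 59.2% ± 3.23 in EpiLC total RNA, and Ago1 took 25.6% ± 0.41 and 33.6% ± 2.32. In RPF the share of Ago2 was 72.3% ± 1.65 in ESCs and 61.7% ± 0.99 in EpiLCs, and that of Ago1 was 22.4% ± 1.46 and 30.8% ± 1.80. The lowest Ago2 share in ESCs stood above the highest in EpiLCs in both assays. The ratio of Ago2 to Ago1 was 2.66 ± 0.06 and 1.77 ± 0.22 in total RNA and 3.24 ± 0.29 and 2.00 ± 0.09 in RPF.

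**Figure D2:**
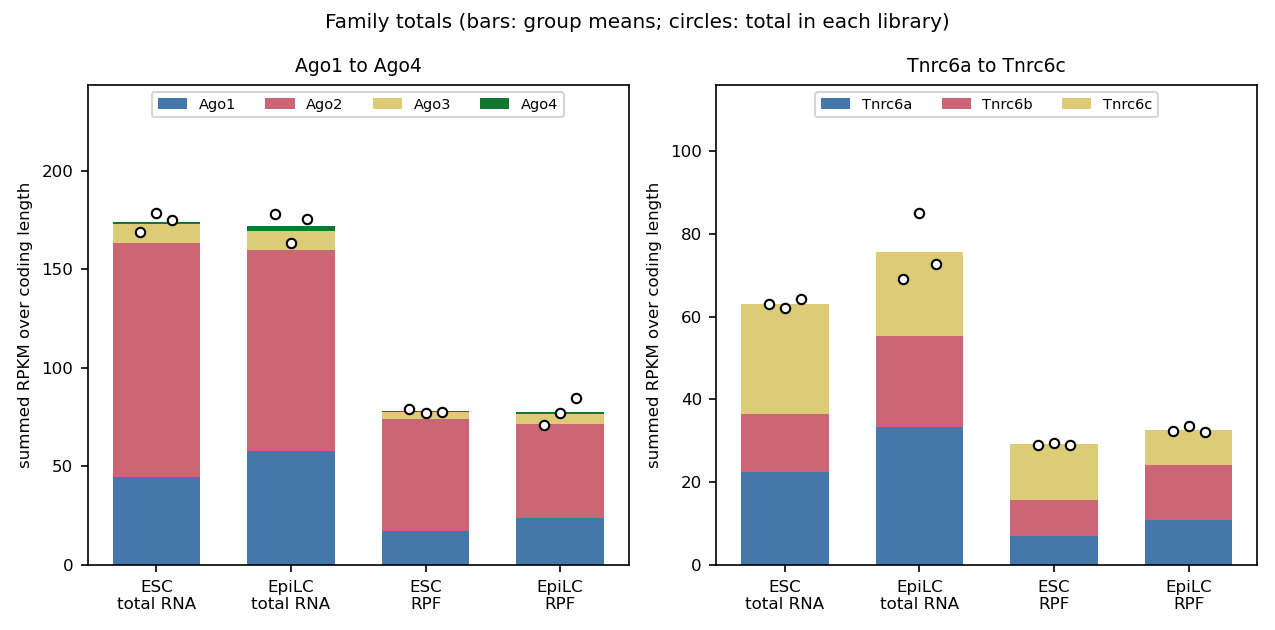
Bars stack the mean RPKM of each Argonaute gene (left) and each Tnrc6 gene (right) in the 4 groups, on an axis from 0, and circles give the family total in each of 3 libraries. The Argonaute totals of the cell types overlap while the Ago1 share is larger in EpiLCs, and the Tnrc6c share is smaller in EpiLCs.

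The Tnrc6 genes, whose products join Argonaute to the deadenylases, also changed in makeup. Tnrc6a, on chr7:123124708-123192951 (plus strand), was at 129, 129.5 and 122 CPM in ESC total RNA and at 167, 217 and 182 CPM in EpiLC total RNA. Its RPFs were at 34.4, 45.3 and 38.6 CPM in ESCs and at 69.7, 56.7 and 59.1 CPM in EpiLCs. The groups did not overlap, and Tnrc6a rose by 0.54 ± 0.08 in total RNA (adjusted p = 1.87e-06) and by 0.69 ± 0.14 in RPF (adjusted p = 0.000111).

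Tnrc6b, on chr15:80784739-80929476 (plus strand), went from 74.1, 72.9 and 78.7 CPM in ESC total RNA to 106, 140.0 and 109.8 CPM in EpiLC total RNA. In RPF it went from 54.2, 43.0 and 43.1 CPM to 68.6, 76.4 and 70.2 CPM. EpiLC libraries were again all higher, EpiLC replicate 2 most, and Tnrc6b rose by 0.62 ± 0.09 in total RNA (adjusted p = 1.41e-06) and by 0.61 ± 0.13 in RPF (adjusted p = 0.000229).

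Tnrc6c, the third gene of the family, fell. It was at 145 to 159 CPM in ESC total RNA and 113 to 117 CPM in EpiLC total RNA, a change of -0.40 ± 0.07 (adjusted p = 1.12e-05), and at 72.7 to 80.5 CPM and 41.1 to 52.9 CPM in RPF, a change of -0.72 ± 0.11 (adjusted p = 3.32e-06). Its share of the summed RPKM of the Tnrc6 genes was 42.3% ± 1.26 in ESC total RNA and 26.9% ± 2.35 in EpiLC total RNA, and 46.3% ± 2.38 and 25.7% ± 2.85 in RPF. In total RNA it thus had the largest share in ESCs, and Tnrc6a had it in EpiLCs, with 44.1% ± 1.18. In RPF Tnrc6c also had the largest share in ESCs, but Tnrc6b had it in EpiLCs, with 40.8% ± 1.44 against 33.6% ± 4.21 for Tnrc6a. The summed level was 63.2 ± 1.17 RPKM in ESC total RNA and 75.7 ± 8.33 RPKM in EpiLC total RNA, and 29.2 ± 0.23 and 32.7 ± 0.79 RPKM in RPF, with no overlap in either assay.

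The change of translational efficiency (TE), the RPF change less the total RNA change, was fitted as the interaction of assay and cell type. None of the 10 genes passed, beside 0.570% of all tested genes that passed with a higher and 0.630% with a lower TE in EpiLCs, and none was called, beside 0.136% higher and 0.119% lower. With voom and limma 3 of the 10 had an unadjusted p below 0.05. By edgeR and DESeq2 0 of the 10 passed, and the same number had an unadjusted p below 0.05. The share of all tested genes below that unadjusted limit was not computed, so no excess can be read from the 3. These 3 were Lin28a, with 0.52 ± 0.15 (95% interval 0.21 to 0.83, adjusted p = 0.0864), Drosha, with -0.22 ± 0.09 (-0.41 to -0.03, adjusted p = 0.283), and Dicer1, with -0.20 ± 0.09 (-0.38 to -0.02, adjusted p = 0.290). Lin28a passed without EpiLC RPF replicate 1 (0.61, adjusted p = 0.0456) and in the fit with the replicate number as a block (0.51, adjusted p = 0.0404). The intervals of the other 7 genes included 0. The widest was that of Lin28b, -0.32 to 0.92.

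**Figure D3:**
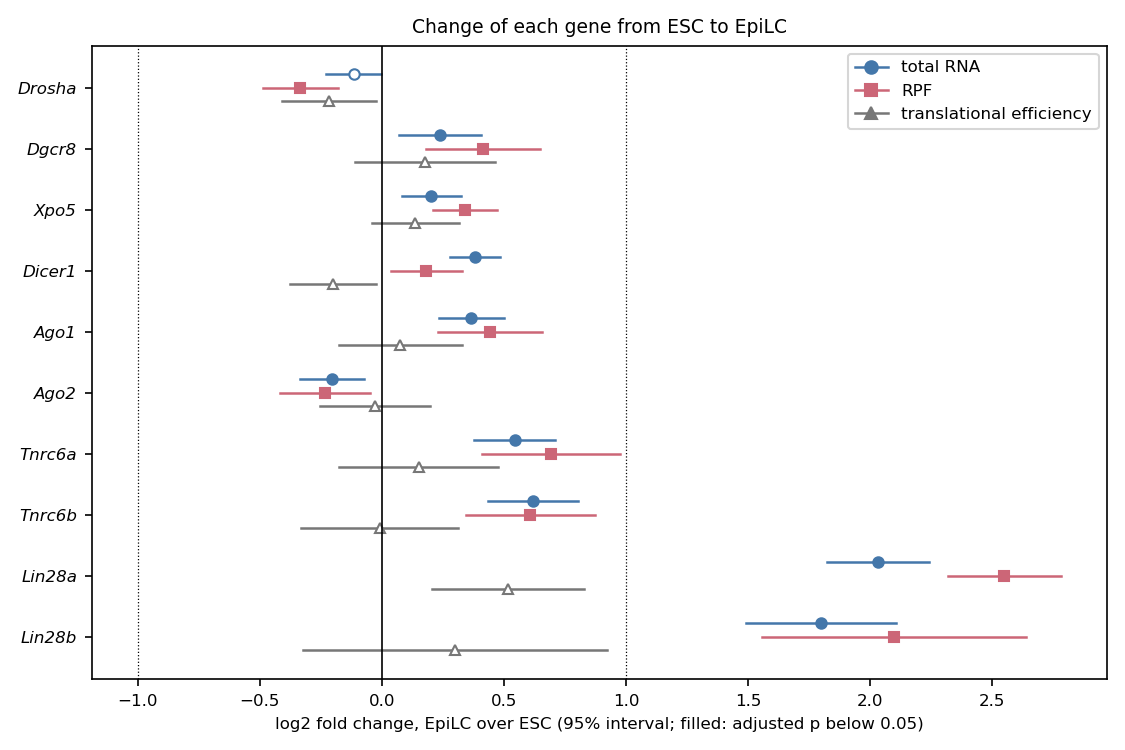
The plot gives the log2 fold change of EpiLC over ESC for total RNA, RPF and TE of each gene with its 95% interval, filled where the adjusted p was below 0.05, with dotted lines at a 2-fold change. Lin28a and Lin28b lie beyond the dotted line in total RNA and RPF, Ago2 lies below 0 in both, and no TE marker is filled.

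Within a cell type most of the 10 genes had low TE. As the ratio of scaled RPF to scaled total RNA, TE was lowest for Tnrc6a, at 0.304 in ESCs and 0.338 in EpiLCs, which put it at percentiles 4.41 and 6.09 of all tested genes. Ago1 (percentiles 8.49 and 9.86), Dicer1 (9.41 and 7.10), Lin28b (11.2 and 18.3), Ago2 (12.5 in both), Drosha (16.9 and 12.6) and Tnrc6b (22.7 and 23.0) followed, all in the lowest 25% of genes in both cell types. Lin28b moved to percentile 22.9 in ESCs without ESC RPF replicate 3, and Tnrc6b to 26.2 in EpiLCs without EpiLC total RNA replicate 2. Dgcr8 was at percentile 19.3 in ESCs and 25.2 in EpiLCs. Xpo5 and Lin28a were the exceptions. Xpo5 had a TE of 1.17 in ESCs and 1.28 in EpiLCs, at percentiles 62.3 and 67.6, and Lin28a had 1.13 and 1.62, at percentiles 60.0 and 81.8. In all, 8 of the 10 stood below the median gene in both cell types.

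Coding length moves with TE in these data. Over the 11750 tested genes Spearman's rho of length and TE was -0.409 in ESCs and -0.389 in EpiLCs, a description across genes that share libraries. All of the 10 genes but Lin28a and Lin28b were longer than the median tested gene, from percentile 74.2 for Dgcr8 to 96.6 for Dicer1 (5676 bases), and Xpo5 was at 89.6 (3570 bases). Lin28a was at percentile 11.9 of length and Lin28b at percentile 19.8. The part of length in these TE values was not tested.

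**Figure D4:**
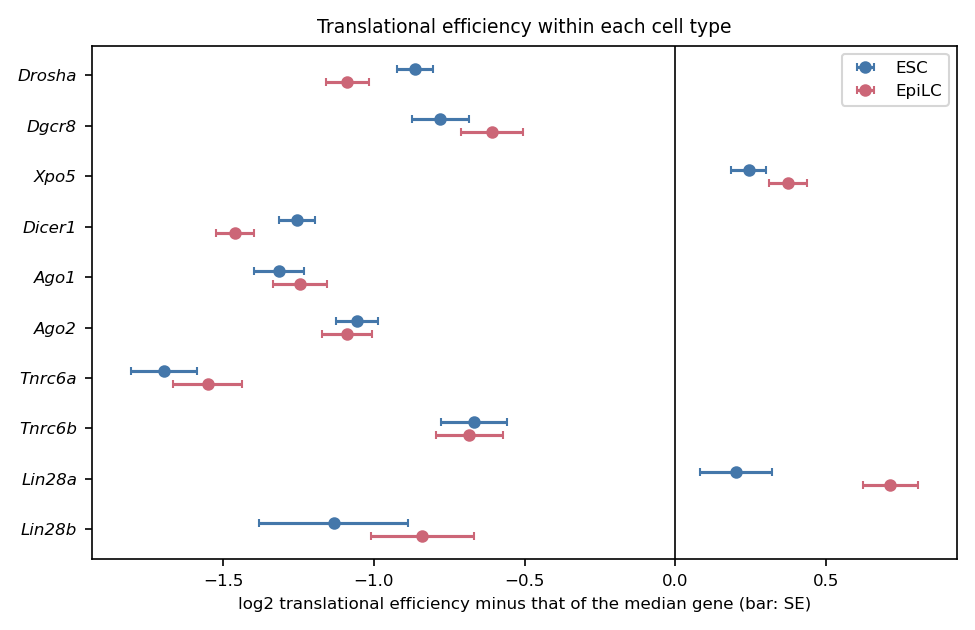
Points give the log2 TE of each gene in ESCs and EpiLCs less that of the median tested gene, with the standard error. Xpo5 and Lin28a lie to the right of 0 in both cell types and the other 8 genes lie to the left.

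Compared per length, Lin28a had the highest level of the 10 in every group. In ESC total RNA it was at 123 ± 15.9 RPKM, in a range that overlapped with that of Ago2 at 119 ± 2.74. Without ESC total RNA replicate 2 the order of these genes turned, with Lin28a at 114 and Ago2 at 117.5 RPKM. Drosha (103 ± 4.12) and Xpo5 (98.5 ± 1.11) came next with overlapping ranges, then Dicer1 (63.4 ± 0.42), Dgcr8 (49.9 ± 0.91), Ago1 (44.6 ± 1.82) and Tnrc6a (22.4 ± 0.71), which did not overlap with their neighbours. Tnrc6b (14 ± 0.57) and Lin28b (12 ± 1.81) were lowest and overlapped.

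EpiLC total RNA kept much of this order. Lin28a reached 502 ± 46.3 RPKM, percentile 99.0 of tested genes, and stood clear of Xpo5 (113 ± 3.91), Ago2 (102 ± 10.1) and Drosha (95.8 ± 6.10), of which neighbours overlapped. Dicer1 (83.0 ± 2.60) stood apart from its neighbours, Dgcr8 (59.0 ± 5.52) and Ago1 (57.7 ± 1.47) overlapped, and Lin28b (41.8 ± 1.82) stood above Tnrc6a (33.4 ± 4.51) and Tnrc6b (22 ± 3.48). Lin28b was thus lowest in ESCs and no longer so in EpiLCs.

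By RPF the order was Lin28a (140.5 ± 23.5 RPKM), Xpo5 (115 ± 8.69), Ago2 (56.4 ± 0.78), Drosha (55.9 ± 0.91), Dgcr8 (28.4 ± 1.39), Dicer1 (26.1 ± 0.73), Ago1 (17.5 ± 1.35), Tnrc6b (8.68 ± 1.2), Tnrc6a (6.98 ± 0.98) and Lin28b (6.31 ± 2.53) in ESCs. Lin28a and Xpo5, Ago2 and Drosha, and the last 3 overlapped. Without ESC RPF replicate 3 Lin28b (7.70 RPKM) stood above Tnrc6a (7.07 RPKM). In EpiLC RPF Lin28a was at 809 ± 98.2 RPKM, against 145 ± 8.44 for Xpo5 and 10.9 ± 1.23 to 47.8 ± 3.55 for the other 8. Ago2, Drosha and Dgcr8 overlapped there in turn, and the other neighbours did not.

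The wider pathway was read from 34 other genes in 5 lists, chosen by function with earlier results of these data known. Without Ago4, 33 remain. In total RNA 10 of these rose and 5 fell, against 34.6% and 30.7% of all tested genes, and in RPF 13 rose and 6 fell, against 31.1% and 28.7%. Their median change was -0.0035 in total RNA and 0.15 in RPF, beside 0.03 and 0.01 over all tested genes. Among 6 microprocessor partners, Srsf3, an SR protein known to help microprocessor find its hairpins, rose in total RNA (0.21 ± 0.08, adjusted p = 0.0295). This did not pass in 6 of 13 other fits, among them limma-trend (adjusted p = 0.0616) and DESeq2 (adjusted p = 0.1002). Srsf3 RPF was lower in every EpiLC library than in any ESC library, at 22.8 to 25.1 against 26.2 to 29.6 CPM, and its change of -0.25 ± 0.15 did not pass (adjusted p = 0.163). Ddx17, a helicase, rose in RPF (0.16 ± 0.07, adjusted p = 0.0390), as did Hnrnpa1 (0.68 ± 0.20, adjusted p = 0.00483), whose cell types overlap and whose reads are uncertain because near-identical copies exist in the genome. The Ddx17 change did not pass in 4 of 13 other fits, with adjusted p of up to 0.123. Nor did these changes pass without ESC total RNA replicate 3 or EpiLC total RNA replicate 2 or 3 (Srsf3, 0.14 to 0.19), without ESC RPF replicate 1 or 2 or EpiLC RPF replicate 1 or 3 (Ddx17, 0.11 to 0.15) and without ESC RPF replicate 3 (Hnrnpa1, 0.43).

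Of 5 export and dicing genes, Prkra, which encodes a partner of DICER1, rose in total RNA (1.29 ± 0.14, adjusted p = 1.38e-08) and RPF (0.89 ± 0.18, adjusted p = 0.000127). Xpo1, the general nuclear export receptor, fell in RPF (-0.31 ± 0.08, adjusted p = 0.00139). Its total RNA, at 0.14 ± 0.06, did not pass (adjusted p = 0.0616), and its TE fell by 0.45 ± 0.10 (adjusted p = 0.0260). With the GC correction the RPF change was -0.11 (adjusted p = 0.0615) and the TE change -0.24 (adjusted p = 0.0638).

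Of 8 Argonaute and silencing partners, Limd1, which encodes an Argonaute-binding scaffold, rose in total RNA from 20.3, 25.2 and 21.0 CPM to 66.0, 59.9 and 63.2 CPM (1.53 ± 0.11, adjusted p = 1.71e-11) and in RPF by 1.49 ± 0.20 (adjusted p = 8.08e-07). Mov10, an RNA helicase bound to Argonaute, fell in total RNA from 143, 134 and 129.8 CPM to 51.0, 53.8 and 48.8 CPM (-1.41 ± 0.08, adjusted p = 2.03e-13) and in RPF by 1.25 ± 0.09 (adjusted p = 2.36e-11). Pabpc1, the poly(A)-binding protein that TNRC6 contacts, had a higher TE in EpiLCs (0.64 ± 0.10, adjusted p = 0.00066). Its RPFs stood at 342, 341 and 366 CPM in ESCs and 517, 528 and 547 CPM in EpiLCs.

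Of 8 genes for LIN28 partners and miRNA tailing or decay, Zswim8, which encodes a ubiquitin ligase subunit of target-directed miRNA decay, rose in total RNA (1.07 ± 0.10, adjusted p = 4.65e-10) and RPF (1.33 ± 0.13, adjusted p = 3.71e-09). Zcchc11, also named Tut4, encodes the uridylating enzyme that LIN28A recruits to let-7 precursors, and it rose in total RNA (0.58 ± 0.08, adjusted p = 3.83e-07) and RPF (0.40 ± 0.11, adjusted p = 0.00286). Xrn2, a nuclear exonuclease, fell in total RNA (-0.63 ± 0.06, adjusted p = 3.13e-10) and RPF (-0.57 ± 0.06, adjusted p = 3.12e-08).

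Of 7 known let-7 targets, 4 rose and 1 fell in each assay, against 34.6% and 30.7% of all tested genes in total RNA and 31.1% and 28.7% in RPF. Trim71 rose in total RNA (0.39, adjusted p = 1.55e-05) and did not pass in RPF (0.21, adjusted p = 0.0579), while Igf2bp1 rose in RPF (0.32, adjusted p = 8.41e-05) and did not pass in total RNA (0.05, adjusted p = 0.449). Igf2bp3 rose in total RNA (0.38, adjusted p = 7.86e-06) and RPF (0.55, adjusted p = 8.46e-08). Hmga2, a chromatin protein gene and long-known let-7 target, rose in total RNA (1.10 ± 0.31, adjusted p = 0.00310) and RPF (1.58 ± 0.25, adjusted p = 7.0e-06) from 21 to 22 counts per ESC total RNA library. Arid3b rose in total RNA (0.85 ± 0.07, adjusted p = 2.96e-10) and RPF (0.88 ± 0.09, adjusted p = 4.97e-09). Igf2bp2, an RNA-binding protein gene, fell in total RNA (-0.78 ± 0.08, adjusted p = 1.9e-09) and RPF (-0.69 ± 0.09, adjusted p = 4.47e-07). Mycn did not pass in total RNA (-0.10, adjusted p = 0.3225) or RPF (-0.05, adjusted p = 0.624). No gene of this list passed for TE.

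**Figure D5:**
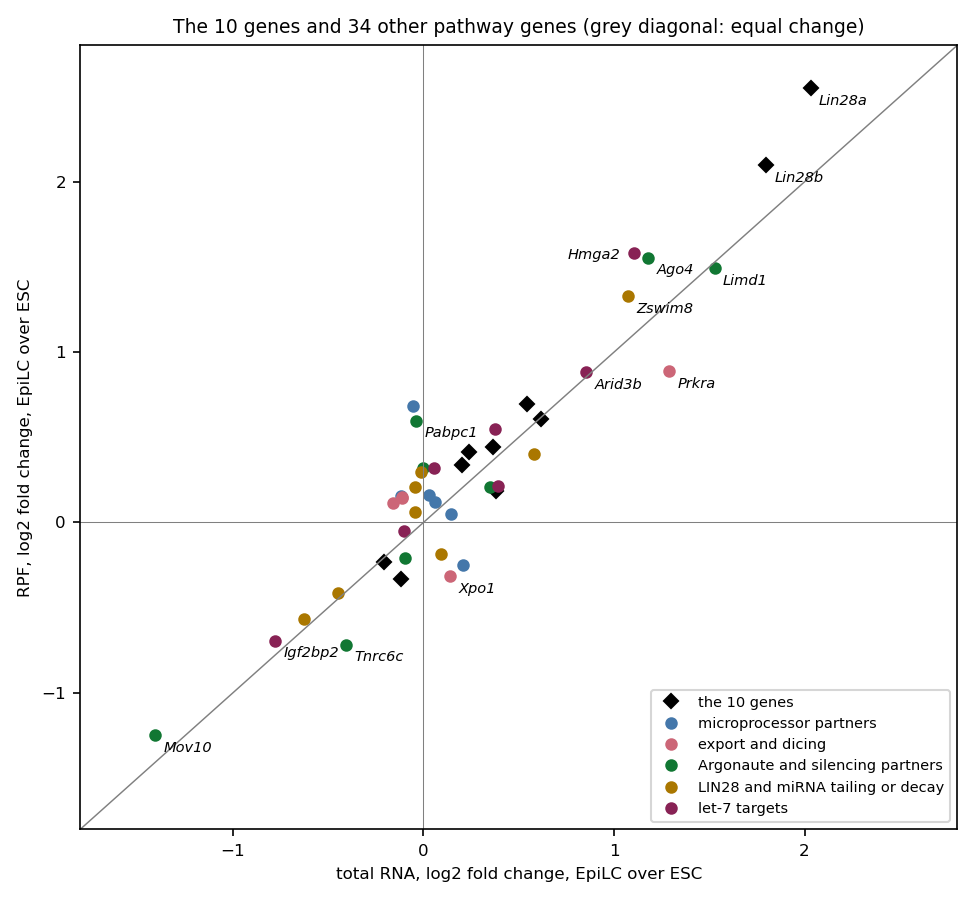
Each point is a gene, with its log2 fold change of EpiLC over ESC in total RNA on the horizontal and in RPF on the vertical axis, with the 10 genes as diamonds and the 34 others as circles coloured by list. Lin28a and Lin28b lie at the upper right, Mov10 at the lower left, and Pabpc1 above and Xpo1 below the diagonal of equal change.

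The genes most like Lin28a over the 12 libraries, by Pearson's r of log2 CPM, were Lrrn4 (0.994), Nexn (0.994) and Sfrp2 (0.994), with changes of 3.05, 3.00 and 3.50 in total RNA and 3.66, 3.88 and 4.18 in RPF. The genes most like Lin28b were Cacna1h (0.995), Cgrrf1 (0.991) and Aifm3 (0.988). The 12 libraries fall into 4 groups, so r mostly follows the group levels and is a description only.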

How the data were processed

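The authors deposited raw counts per gene for 12 libraries, with the counted length. Per the labels and methods, libraries were made with a ribosome profiling kit, trimmed with cutadapt 1.14, mapped uniquely with STAR 2.5.3a to mm10 and counted with featureCounts 1.5.3 as the sense-strand 5′ end of each read in coding sequence (Gencode M14) without its first 45 bases. Treatment of PCR duplicates is not given in the sources used here, so reads may not be independent molecules. None of the 10 genes shares counted bases with another gene. Symbols, GC content and 3′ UTRs came from Gencode M21 on the same assembly, and 22385 of 22462 genes had a symbol.

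Genes with at least 3 CPM in at least 3 libraries were kept (11750). TMM factors (edgeR 4.0.16), voom and limma 3.58.1 in R 4.3.3 were fitted with 4 groups and no replicate block, and Benjamini-Hochberg adjusted p-values were taken over all tested genes. Folds carry voom's 0.5 added to counts. RPKM divides TMM-scaled CPM by coding length. The edgeR and DESeq2 1.42.0 fits and the other alternatives are in the closing section. The fit was also run on simulated data with planted changes of more than 2-fold. That run did not cover smaller changes, such as those of most genes described here. Chi-square per degree of freedom between same-group libraries was 2.51 to 7.75, so none were alike within sampling noise. A count of 3 equalled 0.205 to 1.12 CPM.

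The 10 genes and all lists were chosen with earlier results of these data known. Named were the 10 genes, Ago3, Ago4 and Tnrc6c, up to 3 passing genes per pathway list with the largest total RNA change, any passing for TE, and the 3 genes most like each of Lin28a and Lin28b, the members with the largest RPF change. Trim71, Igf2bp1, Igf2bp3 and Mycn of the let-7 list were named outside this rule.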

Additional observations from a re-analysis of the deposited data

Results flagged for a closer look

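TE differed between the cell types for 2 of the 34 other pathway genes by the interaction of assay and cell type, 1 higher and 1 lower in EpiLCs, beside 0.570% and 0.630% of all tested genes. The log2 TE of Xpo1 changed by -0.45 ± 0.10 (adjusted p = 0.0260), with RPFs at 988, 924 and 814 CPM in ESCs and 753, 690.2 and 722 CPM in EpiLCs, and total RNA at 1039 to 1117 and 1083 to 1364 CPM. This passed in 9 of 12 other fits and in 6 of 12 fits without a single library, and was lost with adjusted p of 0.0536 to 0.0771 without ESC RPF replicate 1 or 2, ESC total RNA replicate 3, EpiLC RPF replicate 2 or 3 or EpiLC total RNA replicate 3. The log2 TE of Pabpc1 changed by 0.64 ± 0.10 (adjusted p = 0.00066), with total RNA at 1231 to 1360 CPM in ESCs and 1148 to 1440 CPM in EpiLCs, and it passed in all 12 other fits and in all 12 without a single library.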

How the results depend on the processing

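Across alternatives of test, scaling, filter, weights, block, GC correction and samples, and with each of 12 libraries left out, Lin28a and Lin28b kept their rise of more than 2-fold in total RNA and RPF (2 of 10 genes in every fit). Of 250 refitted values of the 10 genes in RPF, 235 kept direction and side of the threshold and 15 no longer passed; in total RNA 231 of 250 kept both, 14 passed where the reported fit did not and 5 no longer passed. Genes that fell in total RNA numbered 2 by DESeq2, with DESeq2 size factors, with no filter beyond 1 count, with at least 10 counts in every library, with quality weights and with the total RNA libraries alone, since Drosha joined Ago2, and 0 with the GC correction, with or without the replicate block; without single libraries they numbered 1 to 2. In RPF 1 gene fell with total counts and with the GC correction, with or without the block, and 1 to 2 without single libraries. Genes that rose numbered 7 to 8 in total RNA and 6 to 8 in RPF without single libraries. Dgcr8 and Dicer1 both no longer passed in RPF without EpiLC RPF replicate 3. What caused these changes was not tested.

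The paper describes the total mRNA of the ribosome profiling as matched to the RPFs. It does not say that equal replicate numbers mark the same culture, and the labels name no shared culture. Deviations from the group means correlated by -0.0805 to 0.102 between libraries of the same replicate number. Low correlations cannot exclude a shared culture, and the reported fit did not pair the libraries. A fit with libraries of the same cell type and number as a correlated block moved none of the 10 genes across the threshold. The fit with the number as a block gave 261 genes passing for TE in place of 141, 53 in place of 30 over 2-fold, and 1 of the 10 genes, Lin28a (0.51, adjusted p = 0.0404), and moved none of the others among the 10 across the threshold; with the GC correction added it gave 57 over 2-fold. The number of genes passing for TE was also moved by DESeq2 (285, and 56 over 2-fold), limma-trend (83) and no filter (67). Without single libraries it ranged from 66 to 207, and from 20 to 51 over 2-fold, with 0 to 1 of the 10 genes, that being Lin28a without EpiLC RPF replicate 1. The filter set how many genes were called in total RNA (4441 with none and 1595 at 10 counts, against 2852) and RPF (1769 at 10 counts, against 3059), as fewer or more genes were tested.

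Values near 0 changed sign. The total RNA change of Ago3 was 0.0041 by edgeR, 0.0079 by limma-trend and 0.011 with the replicate block, and -0.027 to 0.036 without single libraries, where its RPF change was -0.067 to 0.69. The TE change of Ago2 was 0.0011 with total counts and -0.097 to 0.045 without single libraries. That of Tnrc6b was 0.022 with total counts, 0.0034 with DESeq2 size factors, 0.00061 with no filter, 0.013 at 10 counts, 0.043 with quality weights and -0.097 to 0.11 without single libraries. That of Lin28b was -0.16 to 0.49 without single libraries, the negative value coming without ESC RPF replicate 3. No scaling moved the median change of all genes by over 0.1. With total counts, levels moved by more than the SD of replicates for Dgcr8 (50.9 RPKM), Xpo5 (100.5) and Dicer1 (64.7) in ESC total RNA and for Drosha (54.4) and Ago2 (54.8) in ESC RPF, and log2 TE in ESCs for Drosha (-0.96), Dicer1 (-1.35, and -1.32 without ESC RPF replicate 3) and Ago2 (-1.15).

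The shallowest library was EpiLC RPF replicate 2, and the 30 to 94 RPF counts of Lin28b and the 2 to 21 of Ago4 leave their TE imprecise.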
